A study of Homo sapiens with 3 samples.

Results

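The lineage and subtype transcription factors of small cell lung cancer (SCLC) were followed in cells depleted of ERRγ, an orphan nuclear receptor encoded by ESRRG. The rule was a list of 10 names and used no measured value, although it was drawn up with earlier results of these data known: NEUROD1, INSM1, POU2F3, YAP1, NKX2-1, FOXA2, PROX1, SOX2, ISL1 and REST. Of these, 9 were listed among the 17448 genes of the table, ISL1 was not, and 7 reached 10 counts in at least 1 library. RNA came from H128, an established human SCLC line, harvested 48 h after transfection with control siRNA (siCont) or with an siRNA against ESRRG (siERRG2 or siERRG3). Triplets of counts or FPKM follow the order siCont, siERRG2, siERRG3, and pairs of log2 fold changes the order siERRG2, siERRG3. Each condition was 1 library of 1 cell line, so no difference has a replicate check and no p-value is given. The labels do not settle which ESRRG siRNA sequence each of the ESRRG libraries received. ESRRG itself had counts of 806, 211 and 230, so the targeted gene was lower in both libraries that carry its name.

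SCLC is a neuroendocrine tumour whose cell states are commonly described by the transcription factor that dominates them. NEUROD1 is a basic helix-loop-helix (bHLH) factor of neurons and endocrine cells, and INSM1 is a zinc-finger repressor found in nearly all neuroendocrine tumours. POU2F3 is the tuft cell factor and YAP1 the transcriptional coactivator of the Hippo pathway, and each marks tumours with little or no neuroendocrine character. NKX2-1 and FOXA2 belong to the lung and foregut program, PROX1, SOX2 and ISL1 to neural and endocrine development, and REST represses neuronal genes outside neurons. Changes in RNA of such a factor in a bulk culture cannot be told apart from changes in the share of cells that express it.

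ERRγ binds DNA as a monomer or dimer at an ERR response element, TNAAGGTCA, and bHLH factors bind E-boxes, here written CAGNTG. Both motifs and the shorter core site AGGTCA were searched on both strands in windows of 300 bases, 250 before and 50 after the transcription start, taken from RefSeq on GRCh38.p14. The core site is contained in the response element, so every match of the longer motif also counts for the shorter one. The table of promoters held 8 promoters of 6 of the genes, and INSM1, PROX1, FOXA2 and POU2F3 had no entry. The response element was found in 0 of the 6 genes, against 0.607% of the 19759 promoters of genes in the expression table. A core site was found in 2 of the 6 genes, SOX2 and REST, against 11.2% of those promoters, and an E-box in 1, ISL1, against 46.6%. A gene was counted if any of its promoters matched, whereas the shares are per promoter, and only 1 of the 2 REST promoters matched. ISL1 is not in the expression table, so its promoter is not among the 19759. The matches are of letters only, and 0 matches says that these letters were not in this window. The promoters of 3 factors whose RNA differed between libraries are shown because they are the windows that were searched, as the 250 bases before the start and with the core site in capitals. They lie at chr2:181680518-181680767 on the minus strand (NEUROD1), chr3:181711675-181711924 on the plus strand (SOX2) and chr14:36520233-36520482 on the minus strand (NKX2-1, the first of its 2 starts).
NEUROD1: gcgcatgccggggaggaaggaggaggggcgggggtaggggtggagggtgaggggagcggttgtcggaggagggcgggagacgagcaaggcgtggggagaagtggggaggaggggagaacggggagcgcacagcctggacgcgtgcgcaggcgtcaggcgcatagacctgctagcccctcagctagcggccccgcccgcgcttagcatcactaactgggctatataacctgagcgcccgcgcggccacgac
SOX2: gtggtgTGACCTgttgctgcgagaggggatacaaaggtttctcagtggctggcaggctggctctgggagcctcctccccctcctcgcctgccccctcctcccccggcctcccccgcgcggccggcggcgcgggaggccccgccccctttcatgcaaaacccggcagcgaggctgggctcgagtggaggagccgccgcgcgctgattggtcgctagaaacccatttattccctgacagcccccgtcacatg
NKX2-1: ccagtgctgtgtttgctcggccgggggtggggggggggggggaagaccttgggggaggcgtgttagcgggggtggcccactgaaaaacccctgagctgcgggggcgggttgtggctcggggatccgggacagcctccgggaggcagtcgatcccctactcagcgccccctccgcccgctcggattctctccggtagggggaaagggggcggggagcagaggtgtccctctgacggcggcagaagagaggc
In the SOX2 promoter the core site lies on the opposite strand, 244 bases before the start. The NEUROD1 and NKX2-1 windows hold none of the 3 motifs, and their G and C content is 70% and 70.8%, close to the 68.8% of SOX2.

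INSM1 and NEUROD1 dominated the set. In siCont, INSM1 had an FPKM (reads scaled by transcript length and by library total) of 183.42 and NEUROD1 of 123.30. With their counting intervals, from 180 to 187 and from 121 to 126, the pair was separated. SOX2 at 8.45 and PROX1 at 7.05 followed, with intervals of 7.66 to 9.29 and 6.65 to 7.47 that did not overlap, and NKX2-1 had 1.03. The FPKM of POU2F3 was 0.10, of FOXA2 0.06, of REST 0.04 and of YAP1 0.02, and neighbours in that order had overlapping intervals. INSM1 and NEUROD1 together made up 94.8%, 92.5% and 91.7% of the summed FPKM of the 9 listed genes in the 3 libraries. H128 thus carried RNA of the NEUROD1 and INSM1 state, and the factors that mark the tuft and YAP1 states were at 11 counts or fewer in every library.

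The table annotates 1494 genes as transcription factors, with median FPKM of 3.3, 3.26 and 3.08. Ranked by FPKM, INSM1 stood at number 13 of these, then 27, then 17. NEUROD1 stood at number 23, then 22, then 39. The order of the pair therefore turned over in 1 library: NEUROD1 lay above INSM1 in siERRG2 and below it in the other two. SOX2 moved up the ranks, from 428 in siCont to 390 and 307, and PROX1 moved down from 484 to 535 and 524. YAP1 is a coactivator that does not bind DNA itself and carries no transcription factor entry, so it has no rank here.

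**Figure D1:**
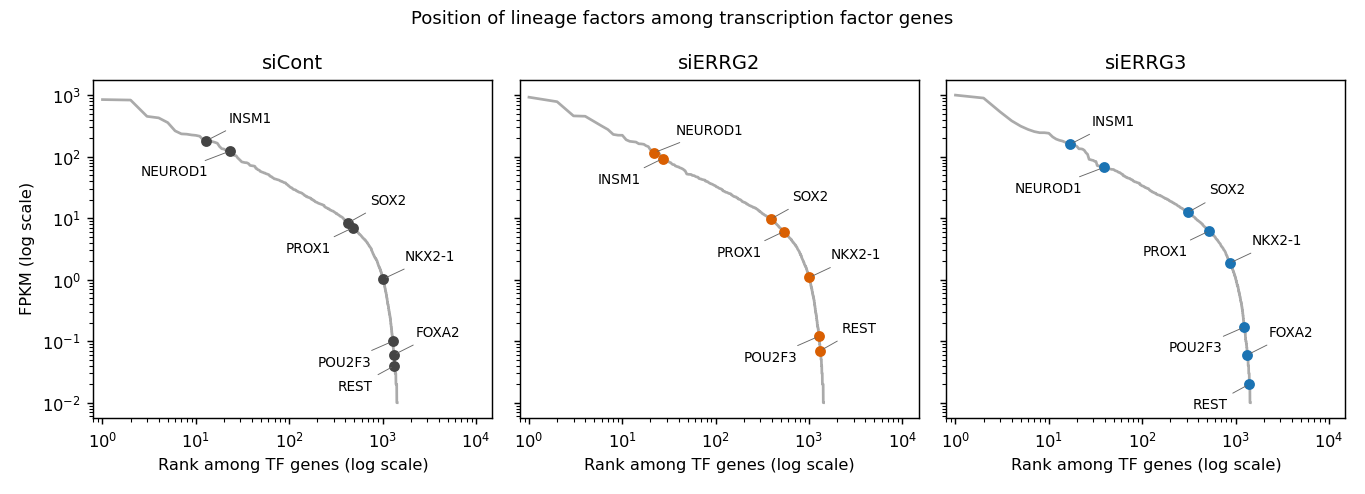
FPKM (log axis) of the 1494 genes annotated as transcription factors, ranked from the highest (log axis), in each library (grey line), with the lineage factors as points. INSM1 and NEUROD1 sit at ranks 13 and 23 in siCont and change places in siERRG2, at 27 and 22; genes listed at 0 cannot be drawn on the log axis.

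Each ESRRG library was then compared with siCont, as log2 CPM after TMM scaling, with a 95% exact binomial interval of the scaled count ratio that covers counting error only. The siCont library is shared by both comparisons, whose values are therefore set side by side and not counted as separate evidence. Over the 7 genes above the filter, the median log2 fold changes were 0.04 and -0.20, and those of all genes 0.00 and 0.00. Over the 5 that averaged at least 50 counts the medians were -0.09 and -0.20, so the sign in siERRG2 depended on genes of low counts. INSM1 alone, 1 of the 7, was at least 1.2-fold lower in siERRG2, where 19.2% of all 14031 genes were, and 2 were higher (POU2F3 and REST), where 16.4% of all genes were. REST passed the filter only through siERRG2, so the filter favoured its call as higher there. With a mean of at least 50 counts required, 0 were higher in siERRG2. In siERRG3, 2 were at least 1.2-fold lower (NEUROD1 and REST), against 25.1% of all genes, and 3 were higher (NKX2-1, SOX2 and POU2F3), against 23.2%. POU2F3 passed the filter only through siERRG3, which favoured its call as higher there. With a mean of at least 50 counts required, 1 was lower and 2 were higher in siERRG3. In both libraries 0 were lower, against 7.88% of all genes, and 1 was higher, POU2F3 on 11 counts or fewer, against 7.26%. By the interval of the ratio, 3 genes lay below 1 in siERRG2 (INSM1, NEUROD1 and PROX1), against 22.4% of all genes, and 1 above (SOX2), against 21.7%. The same 3 lay below 1 in siERRG3, against 28.5% of all genes, and 2 above (SOX2 and NKX2-1), against 27.1%. The share of all genes below 1 in both libraries was not computed. Intervals narrow as counts rise, and these 3 genes averaged over 1000 counts. The shares over all genes, many of lower counts, are therefore not a like comparison for them. With 7 genes and 1 library per condition, these counts describe the set and do not separate it from other genes.

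**Figure D2:**
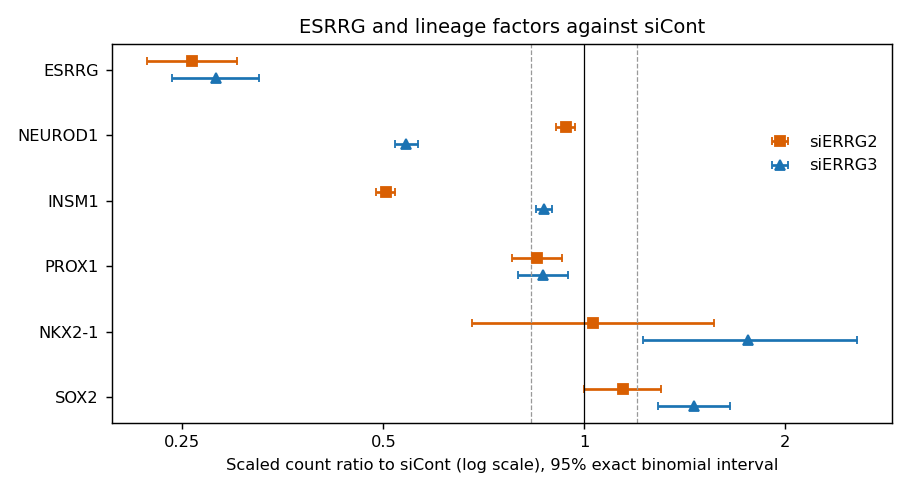
Scaled count ratio to siCont (log axis) of ESRRG and of the 5 lineage factors averaging at least 50 counts, in siERRG2 (squares) and siERRG3 (triangles), with 95% exact binomial intervals. ESRRG lies at 0.259 and 0.281 in the 2 libraries, INSM1 is lowest in siERRG2 and NEUROD1 in siERRG3; dashed lines mark 1.2-fold.

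INSM1 (gene ID 3642, chromosome 20, 20368121 to 20370949 on GRCh38) had counts of 10359, 5279 and 9168. The siERRG2 library stood far below the other two. The log2 fold change was -0.99 in siERRG2, a ratio of 0.504 with an interval of 0.487 to 0.521. In siERRG3 it was -0.20, a ratio of 0.87 with an interval of 0.846 to 0.895. Among the 4684 genes that averaged at least 1000 counts, INSM1 was the 18th lowest in siERRG2 and the 1211th lowest in siERRG3. Of these abundant genes 10.7% were at least 1.2-fold lower in siERRG2 and 20.8% in siERRG3.

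NEUROD1 (gene ID 4760, chromosome 2, 181668295 to 181684673) had the converse pattern, with counts of 7395, 7020 and 4073. Here the siERRG3 library was the low one. The log2 fold change was -0.88 in siERRG3, a ratio of 0.542 with an interval of 0.521 to 0.563, and -0.09 in siERRG2, with an interval of 0.908 to 0.97. NEUROD1 was the 111th lowest of the 4684 abundant genes in siERRG3 and the 1411th lowest in siERRG2. The FPKM of INSM1 was therefore 1.49, 0.799 and 2.39 times that of NEUROD1 in the 3 libraries.

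The ESRRG libraries were also set against each other. INSM1 was higher in siERRG3 than in siERRG2 by 0.79 on the log2 scale, with an interval of the ratio of 1.67 to 1.79. NEUROD1 was lower, with a log2 fold change of -0.79 and an interval of 0.555 to 0.6. In this contrast the interval lay below 1 for 2 of the 7 genes (NEUROD1 and REST), against 28.4% of all genes, and above 1 for 3 (INSM1, NKX2-1 and SOX2), against 29.1%. REST passed the filter only through its 10 counts in siERRG2, a filter that favours a lower value in siERRG3. ESRRG itself had a log2 difference of 0.12 between these libraries, with an interval of 0.896 to 1.31 that includes 1. With 1 library for each siRNA, a difference between the siRNAs cannot be told apart from a difference between cultures.

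SOX2 (gene ID 6657, chromosome 3, 181711924 to 181714436), a stem cell factor, had counts of 423, 489 and 628. It was the gene of the set with more counts in both ESRRG libraries and intervals above 1 in both. The log2 fold change was 0.19 in siERRG2, where the interval of 1.001 to 1.3 only just left out 1, and 0.54 in siERRG3, with an interval of 1.29 to 1.65. SOX2 lies inside the span of FXR1 in the table, whose counts were 1984, 1612 and 2363. Whether reads were counted by strand is not given in the sources used here, and the part of FXR1 in the SOX2 counts was not tested.

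PROX1 (gene ID 5629, chromosome 1, 213983210 to 214041510), a homeobox factor, had counts of 1137, 977 and 1004. The siCont library was the highest and the ESRRG libraries differed little, with a log2 difference of 0.03 between them. Its log2 fold changes, -0.23 and -0.20, were both smaller than 1.2-fold, with intervals of 0.779 to 0.926 and 0.797 to 0.946.

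NKX2-1 (gene ID 7080, chromosome 14, 36516397 to 36520225), the lung and thyroid homeobox factor, had counts of 48, 50 and 86. Only siERRG3 stood apart. The log2 fold change there was 0.79, with an interval of the ratio of 1.22 to 2.56, against 0.04 in siERRG2 with an interval of 0.679 to 1.56. NKX2-1 overlaps the span of PAX9, which had 167, 202 and 184 counts, and the part of its reads in the NKX2-1 counts was not tested.

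The other 4 listed genes were too low for a change to be detected against siCont. POU2F3 had counts of 6, 8 and 11. Its ratio intervals of 0.401 to 4.61 and 0.611 to 5.94 include 1. REST had counts of 6, 10 and 2, with intervals of 0.543 to 5.52 and 0.0324 to 1.83 that also include 1. POU2F3 passed the filter only through siERRG3 and REST only through siERRG2, so each had to be high in that library. YAP1 had counts of 2, 3 and 1, and FOXA2 of 3, 0 and 3. These lie at or under a floor of 3 counts, which corresponds to 0.151 CPM in siERRG2, and no fold change is given.

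The fold change pattern of each factor averaging at least 50 counts was compared with that of the 11368 other genes at this level. Likeness was the distance between the pairs of log2 fold changes, over the 3 libraries. INSM1 had 9 genes within 0.1 in both fold changes, the nearest being NYAP2, with -0.98 and -0.19, and then AKNA. NEUROD1 had 54, with GAA and C1orf131 nearest. NKX2-1 had 47, with GPX3 and LYSMD2 nearest. SOX2 had 174, with SCGN and STK19 nearest, and PROX1 had 429, with INKA2 and AP1G1 nearest. Of the 5, INSM1 thus had the fewest genes within 0.1 and PROX1 the most. These numbers also depend on how far a pair of fold changes lies from 0, near which the medians of all genes lie. They therefore do not measure how particular a pattern is.

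Other transcription factors of the neuroendocrine program differed from siCont in both directions. Of 24 such genes named in a list, 20 passed the filter. Of these, 4 reached 1.2-fold lower in both ESRRG libraries and 1 higher in both, against 7.88% and 7.26% of all genes. Their median log2 fold changes were -0.06 and 0.03. NHLH1, a neuronal bHLH factor, had counts of 2229, 1368 and 1471, or log2 fold changes of -0.72 and -0.62, with intervals of 0.567 to 0.649 and 0.607 to 0.693. Its paralog NHLH2 had counts of 836, 1056 and 1191, or log2 fold changes of 0.32 and 0.48. These paralogs thus lay on opposite sides of siCont in both libraries. Of the MYT1 family of zinc-finger factors, MYT1 had counts of 793, 317 and 650, or log2 fold changes of -1.33 and -0.31. ST18, of the same family, had counts of 1920, 1370 and 1525, or log2 fold changes of -0.50 and -0.36. MYT1L, the remaining gene of the family, had counts of 424, 403 and 274, or log2 fold changes of -0.09 and -0.65. The fourth gene low in both libraries, NEUROD6, had counts of 11, 2 and 5 and passed the filter only through siCont, so it had to be lower in the others. With a mean of at least 50 counts required, 3 genes were lower in both. HES6, a bHLH factor of neural differentiation with an FPKM of 32.23 in siCont, had log2 fold changes of 0.15 and 0.86. NEUROD4 had counts of 2050, 2488 and 2091, or log2 fold changes of 0.26 and 0.00.

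The paralogs of NEUROD1 and INSM1 had other patterns. NEUROD2 had counts of 743, 368 and 964, lowest in siERRG2, where NEUROD1 was lowest in siERRG3. INSM2 had counts of 124, 122 and 182, or log2 fold changes of -0.04 and 0.52, where INSM1 was lowest in siERRG2. For ISL1 no level can be given, and its paralog ISL2 had counts of 320, 317 and 581, or log2 fold changes of -0.03 and 0.83 and an interval in siERRG3 of 1.56 to 2.05.

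NEUROD1 works as a dimer with E proteins (TCF3, TCF4 and TCF12), and ID proteins bind E proteins and keep them off DNA. All 7 genes passed the filter, with median log2 fold changes of 0.08 and -0.17. The E proteins lay within 1.2-fold of siCont in both libraries, with log2 fold changes from -0.13 to 0.12 in siERRG2 and from -0.18 to -0.03 in siERRG3. Among the ID genes, ID2 had counts of 3590, 4063 and 1686, or log2 fold changes of 0.16 and -1.11, with intervals of 1.07 to 1.17 and 0.436 to 0.49. ID1 had log2 fold changes of 0.08 and -0.46, and ID4 of -0.22 and -0.75. ID3 differed from them, with counts of 5259, 7742 and 6048 and log2 fold changes of 0.54 and 0.18. At 1.2-fold, 3 of the 7 genes were lower in siERRG3, against 25.1% of all genes, and 1 was higher in siERRG2, against 16.4%.

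**Figure D3:**
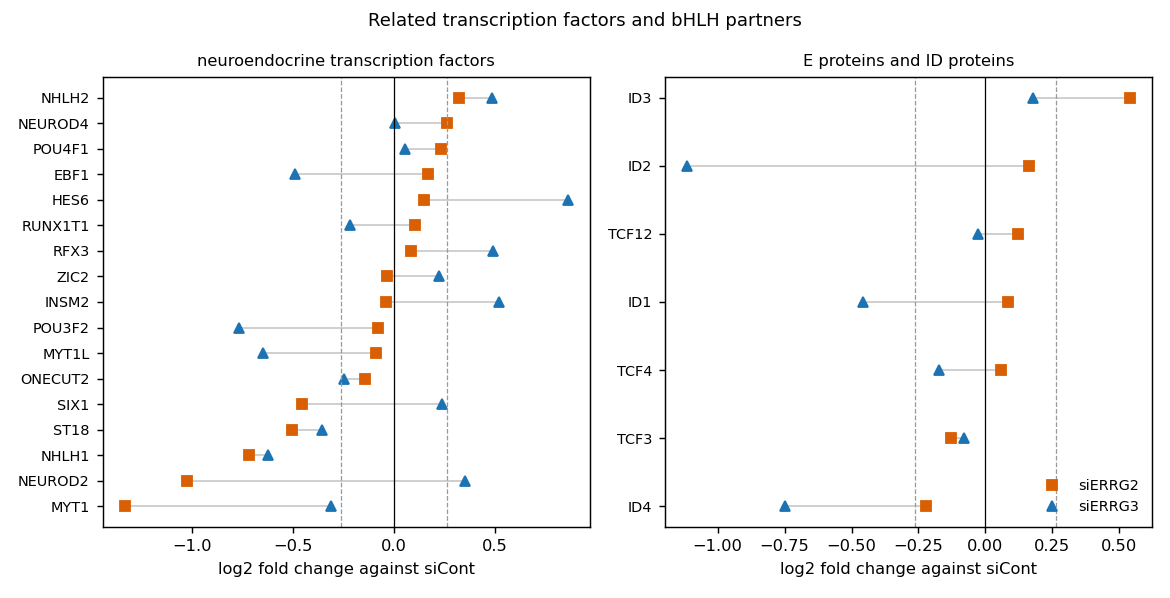
Log2 fold change against siCont in siERRG2 (squares) and siERRG3 (triangles) of neuroendocrine transcription factors (left) and of E and ID proteins (right), for genes averaging at least 50 counts; dashed lines mark 1.2-fold. MYT1, NHLH1 and ST18 lie left of the dashed line in both libraries, and ID2 reaches -1.11 in siERRG3.

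REST was nearly absent, and its corepressors were well expressed. All 12 corepressor genes passed the filter, 1 reached 1.2-fold lower in both libraries and 0 higher in both (all genes 7.88% and 7.26%). KDM1A, the histone demethylase of the complex that INSM1 also recruits, had an FPKM of 170.52, 167.25 and 171.00. HDAC2 had log2 fold changes of 0.01 and 0.17, and HDAC1 of -0.40 and 0.09. SIN3B, the scaffold low in both libraries, had counts of 1351, 957 and 1126, or log2 fold changes of -0.51 and -0.29. RCOR2, the CoREST family scaffold, had counts of 2240, 1573 and 2344, lowest in siERRG2. HMG20B, with log2 fold changes of 0.03 and -0.76, and the histone methyltransferase EHMT2, with -0.12 and -0.74, were lowest in siERRG3. The median log2 fold changes of the 12 were -0.14 and -0.01.

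Genes that REST is known to repress were taken from a list of 30, which is not all of its targets. Most of these were expressed, with a summed FPKM over 29 listed genes of 1034, 1050 and 934. TUBB3 and STMN3 were the highest, with FPKM of 191.17 and 116.10 in siCont. STMN2, CALB1 and GRIN1 had 6 counts or fewer in every library and did not pass the filter. Of the 26 above the filter, 5 reached 1.2-fold lower in both libraries and 3 higher in both (all genes 7.88% and 7.26%). At 1.5-fold the 5 became 0 and the 3 became 2. Their median log2 fold changes were 0.04 and -0.18. SRRM4, the splicing factor that inactivates REST RNA by including a neural exon, had counts of 874, 652 and 470, or log2 fold changes of -0.44 and -0.92, with intervals of 0.665 to 0.817 and 0.472 to 0.592. L1CAM, an adhesion molecule, had log2 fold changes of -0.44 and -0.74, and UNC13A, a synaptic vesicle priming factor, of -0.44 and -0.90. TUBB3, the neuronal tubulin, had counts of 6699, 4935 and 5134, or log2 fold changes of -0.46 and -0.41. CPLX1, a protein of vesicle fusion, was the fifth, with counts of 911, 743 and 250. Of the 3 that were higher in both, BDNF and DCX had 25 counts or fewer, and VGF, a secreted granule protein, had counts of 1645, 2146 and 3253. DCX, with counts of 6, 11 and 11, passed the filter only through the ESRRG libraries, a filter that favours higher values there. With a mean of at least 50 counts required, 1 of the 3 remained. STMN3 and BEX1, also among the most abundant of the list, had log2 fold changes of -0.06 and 0.09, and of 0.21 and 0.48.

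**Figure D4:**
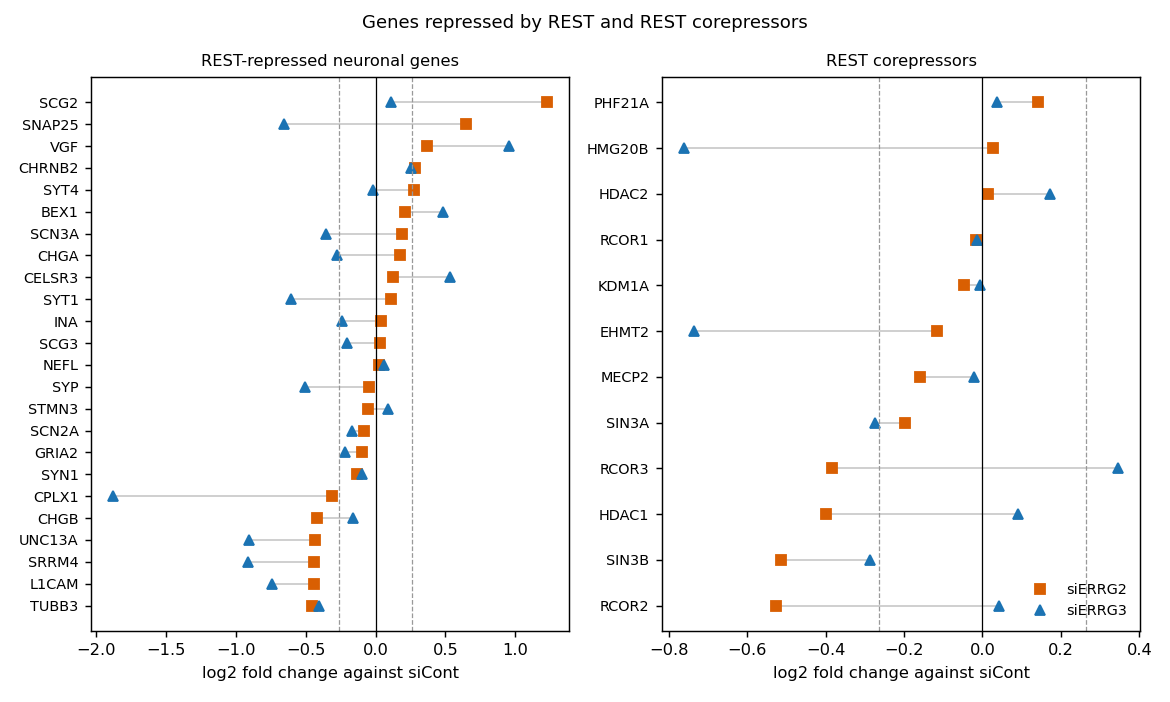
Log2 fold change against siCont in siERRG2 (squares) and siERRG3 (triangles) of genes repressed by REST (left) and of REST corepressors (right), for genes averaging at least 50 counts; dashed lines mark 1.2-fold. TUBB3, L1CAM, SRRM4 and UNC13A lie left of the dashed line in both libraries.

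The neuroendocrine identity of the culture was checked with 13 markers, of which 12 were listed and GRP was not. Their summed FPKM was 1142, 1113 and 1377. UCHL1, a ubiquitin hydrolase, gave most of it, with FPKM of 728.89, 695.97 and 1006.46 and counts of 16031, 15340 and 22326. At the low end, SSTR2 had counts of 51, 51 and 41, and CALCA had 1 count or fewer. SYP, of neurosecretory vesicles, had counts of 5279, 5169 and 3779, and CHGA, of secretory granules, of 3282, 3750 and 2751. DLL3, an inhibitory Notch ligand, had counts of 389, 486 and 578, or log2 fold changes of 0.30 and 0.54. Of the 11 markers above the filter, 0 reached 1.2-fold lower in both libraries and 2 higher, DLL3 and DDC (all genes 7.88% and 7.26%). DDC had 16 counts or fewer and passed the filter only through siERRG3, so it had to be high there. With a mean of at least 50 counts required, 1 was higher in both. The median log2 fold changes of the 11 were -0.05 and 0.05.

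Genes that go with POU2F3 and YAP1 were examined next. Of 16 tuft cell genes 14 were listed and 5 passed the filter, too few and too low for a summary. SOX9, which tuft cells share with other cells, was the highest of them, with counts of 340, 313 and 610. COLCA2 had counts of 20, 13 and 45, and AVIL of 26, 28 and 34. ANXA1 had counts of 0, 16 and 1 and passed the filter only through siERRG2, and its siCont and siERRG3 counts lie under the floor. The 14 genes of the Hippo pathway above the filter had median log2 fold changes of 0.15 and 0.05. Of these, TEAD4, STK4 and MOB1A had the highest FPKM and lay within 1.2-fold of siCont in siERRG2. In siERRG3, TEAD4, a DNA-binding partner of YAP1, had a log2 fold change of 0.34. WWTR1, the paralog of YAP1, had counts of 9, 27 and 54, with ratio intervals of 1.35 to 7.17 and 2.89 to 13.6. It was the 1 gene of the 14 at least 1.2-fold higher in both libraries, and 0 were lower in both (all genes 7.26% and 7.88%). WWTR1 passed the filter only through the ESRRG libraries, a filter that favours higher values there. With a mean of at least 50 counts required, 0 were higher in both. Of a list of 22 genes that YAP1 is known to activate, which is not all of its targets, 16 passed the filter. Their median log2 fold changes were 0.02 and -0.08. ARHGEF17 (counts of 779, 255 and 506) and CRIM1 (12, 9 and 2) reached 1.2-fold lower in both libraries, 2 of the 16. NUAK2 (34, 43 and 49) and CYR61 (7, 16 and 9) were higher, also 2, against 7.88% and 7.26% of all genes. CRIM1 passed the filter only through siCont and CYR61 only through siERRG2. GADD45A, a stress gene on that list, had counts of 820, 975 and 1964.

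Lung epithelial genes of the NKX2-1 and FOXA2 program were sparse, with 13 of 18 listed and 7 above the filter. Their median log2 fold changes were -0.06 and -0.13. ABCA3, a lipid transporter of alveolar cells, had counts of 3372, 3264 and 3123, or log2 fold changes of -0.06 and -0.13. FOXA1, the paralog of FOXA2, had counts of 501, 523 and 433, so the culture carried FOXA1 RNA where FOXA2 was at 3 counts or fewer. CEBPA had counts of 47, 59 and 124, with a log2 fold change of 1.34 in siERRG3. In siERRG3 the interval lay below 1 for 3 of the 7 genes and above 1 for 2 (all genes 28.5% and 27.1%). At 1.2-fold, 1 gene was lower in both libraries, LAMP3, and 1 higher, CEBPA (all genes 7.88% and 7.26%). LAMP3 had counts of 12, 7 and 2 and passed the filter only through siCont, so it had to be lower in the others.

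Other SOX genes are given for comparison with SOX2, from a list of 17 that is not the whole family. SOX7, which is not on it, had an FPKM of 5.48, 3.6 and 3.24. Of the 17, 14 were listed and 6 passed the filter, with median log2 fold changes of -0.15 and 0.05. Of these 6, 0 reached 1.2-fold higher in both libraries and 1 lower (all genes 7.26% and 7.88%), SOX12, with counts of 2722, 1960 and 2225. SOX4, the highest of them, had log2 fold changes of -0.16 and 0.08, and SOX18 of -0.82 and 0.11. Of the LIM homeodomain factors and cofactors, the family of ISL1, 15 passed the filter, with median log2 fold changes of 0.15 and 0.29. In both libraries 0 reached 1.2-fold lower and 4 higher (all genes 7.88% and 7.26%), and at 1.5-fold the 4 became 0. LHX8 had counts of 97, 166 and 133, and LHX6 of 107, 134 and 222. The cofactor LMO1 had counts of 220, 273 and 412, and SSBP4 of 2525, 3272 and 3526. The cofactor LDB1 had log2 fold changes of -0.11 and -0.17.

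Markers of blood, endothelial and stromal cells were summed to look for other cell types. Of 15 markers 13 were listed, and their summed FPKM was 45.25, 56.63 and 38.33. COL1A2 (FPKM of 18.80, 26.59 and 22.85) and CDH5 (17.62, 19.62 and 7.06) gave most of it. The endothelial markers were unlike each other, with CDH5 at 1456, 1623 and 585 counts, PECAM1 at 27, 20 and 25, and VWF at 0, 1 and 0. Of the stromal markers, COL1A2 had counts of 2043, 2896 and 2505, COL1A1 of 181, 127 and 132, and LUM of 83, 183 and 58. DCN, PDGFRB and ACTA2 had 9 counts or fewer. The blood cell markers PTPRC, CD3E, CD68 and LYZ had FPKM between 0.40 and 2.32. The part of other cell types in the values of the lineage factors was not tested.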

How the data were processed

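RNA of 3 libraries, 1 per condition, was analysed from 1 table of 17448 genes. The authors deposited estimated counts (expected counts, not normalized) per gene and an expression value with no stated unit that scales as FPKM. Per the methods, BWA and Bowtie 2 were used on single-end reads with the GRCh37/hg19 genome. The submitters' processing notes name TopHat2, HTSeq and DESeq2 with hg19, hg38 and GRCh38, and gene positions in the table follow GRCh38. Which program counted reads is not given in the sources used here. The table also holds the authors' log2 ratios, p-values and adjusted p-values of 1 library against 1 library, which were not used.

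Rounded counts gave totals of 19861937 (siCont), 19900580 (siERRG2) and 20016780 (siERRG3). The filter kept the 14031 genes that reached 10 counts in any library. TMM factors of edgeR 4.0.16 (R 4.3.3) were 0.994, 1.003 and 1.003, and log2 CPM used a prior count of 2. A 1.2-fold change was called with no test. Intervals are 95% Clopper-Pearson for ratios and exact Poisson for counts (SciPy 1.17.1). They cover counting error only, since reads without molecular identifiers are not independent molecules. The calculations were tested on simulated data.

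The genes, the lists and the alternatives were chosen with earlier results of these data known. From each list the 3 genes of highest mean FPKM and up to 4 genes averaging at least 50 counts, changed by 1.2-fold in the same direction in both ESRRG libraries with intervals beyond 1, were named, and E, ID and REST corepressor genes could all be named. The paralogs NEUROD2, INSM2 and ISL2 were named after their values were seen. So were markers and list genes near 0 or of low counts, and further genes behind a count of 5 or fewer. Genes whose ESRRG libraries lay on opposite sides of siCont were too. Promoters came from RefSeq (GRCh38.p14). The alternatives were total counts, size factors of DESeq2 1.42.0, FPKM with a pseudocount of 0.1, a 1.5-fold threshold, a 99% interval, a mean count of 50 or more, a prior count of 0.5, and no filter.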

Additional observations from a re-analysis of the deposited data

Results flagged for a closer look

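Of the 117 genes on the lists with a mean of at least 50 counts, 6 (5.13%) lay at least 1.2-fold below siCont in one ESRRG library and at least 1.2-fold above it in the other, with intervals beyond 1 in both. Of all 11369 genes at this level 401 (3.53%) did, and 0 of the 6 were lineage factors. The difference between the siRNAs was not tested, since each is 1 library. NEUROD2 was lower in siERRG2 and higher in siERRG3, with a log2 difference of siERRG3 to siERRG2 of 1.38. RCOR3, a REST corepressor, had the same order, with a log2 difference of 0.73. The other 4 were higher in siERRG2 and lower in siERRG3. SNAP25, a vesicle fusion protein, had a log2 difference of -1.31, with counts of 3562, 5649 and 2297 in siCont, siERRG2 and siERRG3. TEAD1, a partner of YAP1, had one of -0.64, and MYOF, a YAP1 target, one of -2.82 with 180, 630 and 88 counts. LUM, a stromal proteoglycan, had one of -1.63 with 83, 183 and 58 counts.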

How the results depend on the processing

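The log2 fold changes of the 7 factors that passed the filter stayed inside their 95% intervals in all 70 recomputed values (total counts, DESeq2 size factors, FPKM, a prior count of 0.5 and no filter). Those of the 5 averaging at least 50 counts moved by at most 0.034. For POU2F3 and REST the intervals are so wide that staying inside them says little. REST in siERRG3 moved by 0.794 with FPKM, from -1.016 to -0.222. Counts that moved by over 1.5 times rested mostly on genes of low counts. In siERRG2 the number of factors at least 1.2-fold lower was 2 in place of 1 with no filter. In siERRG2 the number at least 1.2-fold higher was 1 in place of 2 with FPKM, 0 with a 1.5-fold threshold and 0 with a mean of at least 50 counts. SOX2 in siERRG2 depended on the interval: with 99% the number of factors above 1 there was 0 in place of 1. In siERRG3 the number lower was 1 in place of 2 with FPKM and with a mean of at least 50 counts, leaving NEUROD1. The number of factors higher in both libraries went from 1 to 0 with a mean of at least 50 counts and with the 1.5-fold threshold. Of the recomputed counts over the 12 other lists, 52 stayed within 1.5 times and 20 did not. The median log2 fold change of all genes lay between -0.003 and 0.014 under every scaling. No paired analysis was possible because each condition is 1 library, and for the same reason no replicate could be left out. Counting error limits POU2F3, REST, YAP1 and FOXA2, and the spread between cultures was not measured for any gene.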
